A study of Bos taurus with 35 samples.

Results

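Omental fat (O) was compared with subcutaneous fat (S) of the same animals in Hanwoo, the Korean native cattle. The comparison used 18 of the 34 RNA-seq libraries read for the series, namely all 9 libraries whose labels give omental fat and all 9 whose labels give subcutaneous fat, paired by the animal number that both libraries of an animal carry. The series also holds intramuscular fat (I) and muscle of these animals, 8 libraries of each being used here for levels only. All animals were 30 months old at slaughter and were kept in one feeding barn of an experimental station. The labels give 3 females, 3 castrated males and 3 males, whereas the methods of the study call the animals steers. O came from the lesser curvature of the abomasum, the glandular stomach, and S from a rib section. The depots therefore differ in body cavity and in distance from skeletal muscle as well as in fat type, and these cannot be told apart. Animals are given below as replicates 1 to 9, of which replicates 1, 4 and 7 were the females.

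Omental fat lies inside the abdomen, is covered by a sheet of mesothelium and drains to the liver, while subcutaneous fat lies under the skin. Fat cells of different depots arise from different embryonic precursors, and they keep part of that origin as the expression of transcription factors that set body position in the embryo. In humans and mice, T-box and homeobox genes are among the best known markers that part visceral from subcutaneous fat.

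Counts on genes were 4187267 to 6141691 per O library (median 5389329) and 4913519 to 7184022 per S library (median 5429641). Levels are given as CPM, the counts scaled to library size with the TMM method over the 18 libraries, unless said otherwise. A DEG is a gene with a Benjamini-Hochberg FDR under 0.01 in the quasi-likelihood test of edgeR with the animal in the model. The few marker genes that could be named were read as a check that the libraries are fat. This check cannot show an exchange of the O and S labels. The fat synthesis enzymes FASN (1402 to 6082 CPM in O, 1295 to 10050 in S) and DGAT2 (1758 to 5280 in O, 1901 to 5312 in S) were abundant in every library, and most other defining markers of fat cells, mesothelium and blood cells could not be matched to an identifier. Those that could are SLPI, CD163, ITGAM, CCR2 and MMP9, described below. On a principal component analysis the second component, with 21.2% of the variance, placed the O libraries at -42.7 to -8.79 and the S libraries at -8.72 to 47.9. In bulk tissue, fewer cells of a type and less RNA per cell cannot be told apart. The O library of replicate 7 stood apart from the other O libraries in the level of genes higher in O, as described below, and no library was left out; without replicate 7, all calls of named genes given below held and MMP9 became a DEG.

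Between O and S, 1067 of 12966 tested genes were DEGs (8.23%), of which 592 were up-regulated in O (4.57%) and 475 in S (3.66%). Most differences were small. The median log2 fold change was 0.90 among genes up-regulated in O and -0.65 among those up-regulated in S, and 679 DEGs changed by less than 2-fold. At 2-fold or more, 263 genes were higher in O and 125 in S (388 genes, 2.99%). At 8-fold or more the numbers were 35 and 14, and at 32-fold or more 13 and 4. More genes were thus called higher in O than in S at each of these limits. The genes at 32-fold or more include some with at most 3 counts in every library of the other depot. Such genes passed the count filter through one depot alone, and their folds rest on very few counts. The numbers at the largest folds are therefore a description, and no conclusion about the depots is drawn from them. Without the animal in the model 430 genes were DEGs (259 in O and 171 in S), and 416 of them were also DEGs with the animal in the model.

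**Figure D1:**
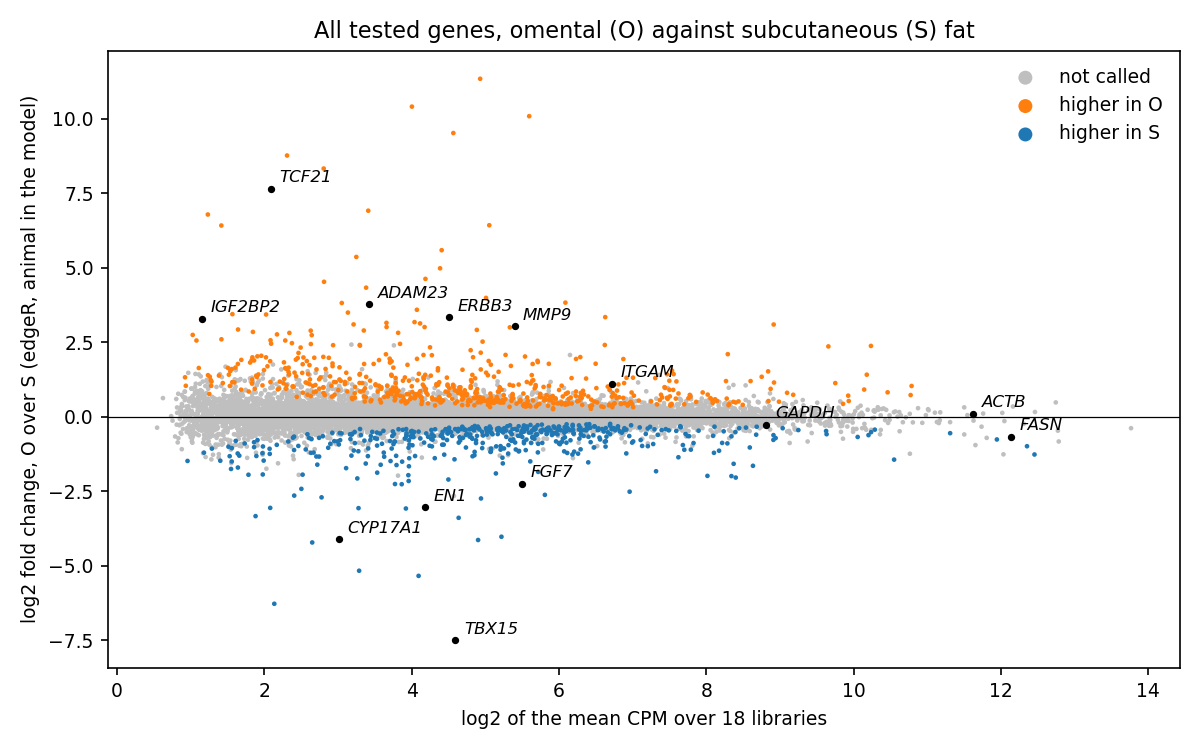
Log2 fold change of O over S (edgeR, animal in the model) against the log2 of the mean CPM over the 18 libraries, for the 12966 tested genes. Orange points are the 592 DEGs higher in O, blue points the 475 DEGs higher in S, and black points are genes named in the text, of which MMP9, GAPDH, ACTB and FASN were not called. TBX15 has the lowest value of all genes.

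Genes that set body position were among the named genes with the largest differences. Of a list of 78 transcription factors of body position, 7 could be matched to an identifier. All 7 differed between the depots, with 5 higher in S (TBX15, EN1, LHX8, TBX5 and ZIC1) and 2 higher in O (TCF21 and ISL1). Their median log2 fold change was -4.79 as fitted and -2.76 with genes that had 0 counts in O set at their lower bound, against a median of -0.01 over all tested genes. These 7 identifiers come from the table of qRT-PCR primers of the study, whose genes were picked on these samples. The number called, and the size and direction of their differences, are therefore not independent evidence and no result about position factors as a class. LHX8, TBX5, ZIC1 and ISL1 did not pass the count filter, and their values are from a fit without it, in which 1295 of 19310 genes were called (6.71%).

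TBX15, a T-box factor of skeletal and skin patterning, had 0, 1 and 3 counts in O (lowest, median and highest library) and 216, 263 and 326 in S. This is 0 to 0.619 CPM in O and 38.6 to 64.3 CPM in S. Every S library was far above every O library, and the spread between animals was small on both sides. The log2 fold change was -7.48 ± 0.25 (SE, n = 9 animals), the largest decrease from S to O among all tested genes, and TBX15 was higher in S in 9 of 9 animals. It was also high in the other tissues, with 76 to 298 counts in 8 I libraries and 133 to 1071 in 8 muscle libraries. Of the 4 tissues read, O was the one with 3 counts or fewer in each library.

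EN1, a homeobox gene of dorsal-ventral patterning of the limb and of the dorsal skin, was detected in both depots. It ranged from 0.910 to 10.1 CPM in O (median 3.20) and from 23.0 to 41.0 CPM in S (median 30.7). The ranges did not overlap, and the highest O library stood below the lowest S library. The log2 fold change was -3.03 ± 0.24 (n = 9, edgeR adjusted p = 4.28e-06), an 8.19-fold difference.

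Of the S factors with few counts, LHX8 had 0 counts in all 9 O libraries and 5 to 41 in S (median 19). Its level in S was 0.780 to 8.42 CPM. LHX8 is a LIM-homeobox factor of the developing forebrain and jaw. The limit that 0 counts allow is 3 counts, or 0.548 CPM in a library of average size. Against it LHX8 was at least 6.76-fold higher in S, with S higher in 9 of 9 animals. For LHX8 no p is given, as it had 0 counts throughout O. In I it had 0 to 15 counts, and in muscle it had 0 in all libraries.

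TBX5, the T-box factor of the forelimb and heart, had 2 counts in all of O, both in replicate 7, and 3 to 22 counts in each S library (85 in all). The ratio of S to O was 40.6 by counts (95% exact interval 10.9 to 340, counting error only). The fitted log2 fold change was -4.79, with S higher in 9 of 9 animals. No SE or p is given, as the fit rests on 2 counts in O. Without replicate 7, which held both counts in O, the fit gave -6.00, which is no bound, since O then had 0 counts.

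ZIC1, a zinc finger factor of the dorsal neural tube and somites, had 0 counts in all 9 O libraries, but its level in S split the animals. Replicates 1, 4, 6 and 7 had 21 to 31 counts in S, whereas replicates 2 and 9 had 0 and the other 3 had 1 to 5. The 3 females were all among the animals with high counts, together with 1 male. On average S was at least 3.86-fold above the limit set by 0 counts in O (higher in 7 of 9 animals with 2 at 0 in both depots). As O had 0 counts throughout, no p is given for the call. It was lost with DESeq2 (adjusted p = 0.178) and in one edgeR fit over all fat libraries (0.0116). In muscle ZIC1 had 72 to 267 counts and in I 11 to 45, so the S libraries were below all muscle libraries and overlapped with I.

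TCF21, a basic helix-loop-helix factor of visceral mesoderm and epicardium, was the counterpart in O. It had 29, 46 and 60 counts in O and a single count in all of S, in replicate 3. In O the level was 5.98 to 12.8 CPM with a coefficient of variation of 0.246, and the depots did not overlap. The ratio of O to S was 425 by counts (95% exact interval 75.9 to 16800, counting error only), and the fitted log2 fold change was 7.65, for which no SE is given, as it rests on a single count in S. Without replicate 3, which held the only count in S, the fit gave 8.55, which is no bound, since S then had 0 counts. TCF21 had 0 to 3 counts in I and 0 in muscle.

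ISL1, a LIM-homeobox factor of heart and motor neurons, was low in both depots. It had 2 to 44 counts in O (median 6) and 0 to 3 in S (median 0). In CPM the ranges overlapped, because of the O library of replicate 7, but each animal had more in its O than in its S library. For ISL1 the log2 fold change was 3.52 ± 0.52 (n = 9, edgeR adjusted p = 2.83e-04). The highest O library, replicate 3 with 7.69 CPM, stood well apart from the next with 2.46.

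**Figure D2:**
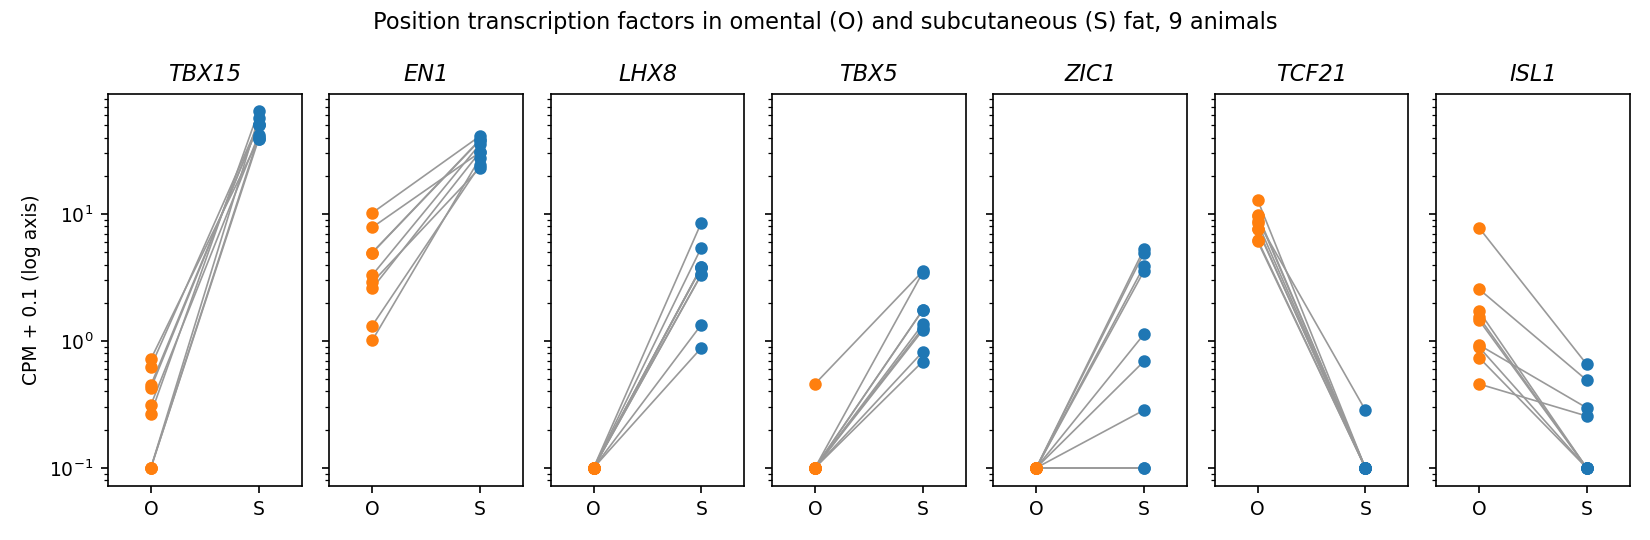
Levels of the 7 matched position factors in O (orange) and S (blue), as CPM + 0.1 on a log axis, where a point at 0.1 has 0 counts. A grey line joins both depots of one animal. TBX15, EN1, LHX8 and TBX5 are higher in S and TCF21 and ISL1 higher in O in all 9 animals, while ZIC1 has 0 in both depots of 2 animals.

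Among other genes up-regulated in O, ADAM23, a catalytically inactive membrane disintegrin that binds integrins, ranged from 6.64 to 32.2 CPM (median 20.2) against 0.468 to 3.24 in S (median 1.48). The ranges did not overlap, and the difference on the log2 scale was 3.77 ± 0.27 (n = 9), a 13.6-fold difference, with O higher in 9 of 9 animals. ADAM23 passed the count filter through O, with 3 to 18 counts in S, so no p is given. IGF2BP2, an RNA-binding protein of the IGF2 mRNA, ranged from 2.11 to 6.57 CPM in O (13 to 33 counts) and from 0 to 0.966 in S (0 to 5 counts), again without overlap. Its log2 fold change was 3.29 ± 0.36, and as it passed the count filter through O alone, no p is given.

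ERBB3, a neuregulin receptor that is also a marker of Schwann cells, ranged from 3.76 to 104.5 CPM in O (median 43.1) and from 1.72 to 9.17 in S (median 2.86). The depots overlapped, since replicate 7 had 3.76 CPM in O and replicate 1 had 9.17 in S, but ERBB3 was higher in O in all 9 animals. The log2 fold change was 3.35 ± 0.35 (n = 9, edgeR adjusted p = 5.13e-05). Within animals the log2 difference was 0.99, 1.36 and 3.08 in the females (replicates 7, 1 and 4), 2.38 to 3.99 in the castrated males and 3.75 to 4.76 in the males, so that the females overlapped with the castrated males. The fitted log2 fold change was 2.04 in females, 3.52 in castrated males and 4.44 in males. The interaction of sex with depot was not significant for ERBB3 (edgeR unadjusted p = 0.00576, adjusted p = 0.576).

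STRA6, the membrane receptor for retinol binding protein, had 2 to 90 counts in O (median 12) and 0 to 3 in S (median 2). Its ranges overlapped in the lowest O library, and O was higher in 9 of 9 animals (log2 fold change 3.03 ± 0.48, edgeR adjusted p = 5.12e-04). UCP1, the uncoupling protein of brown fat, had 0 to 36 counts in O (median 4) and 0 to 3 in S (median 0), with replicate 9 at 0 in both depots. Its log2 fold change was 3.0 ± 0.54 (n = 9, edgeR adjusted p = 0.00172). O was higher in 8 of 9 animals, one of which, replicate 7, had 1 count in each depot. The highest O library of UCP1 was replicate 2, and the call was lost without it (adjusted p = 0.0168) and without the animal in the model (0.0201), with a range of 0.001 to 0.0201 over the alternatives. Both genes were at or near a few counts in most libraries, so their folds are imprecise.

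BDNF, a neurotrophin, had 1 to 47 counts in O (median 20) and 0 to 12 in S (median 3). It was higher in O in 8 of 9 animals, with the reverse in replicate 7, which had 1 count in O and 5 in S. The log2 fold change was 2.28 ± 0.49 (edgeR adjusted p = 0.00507), and the call was lost without replicate 2, 3, 5, 6 or 9 and without the animal in the model (adjusted p 4.27e-04 to 0.0196 over all alternatives).

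EEF1A2, a translation elongation factor made in muscle and nerve in place of EEF1A1, had 1.08 to 16.7 CPM in O (median 4.78) and 0.185 to 7.01 in S (median 0.690). The depots overlapped, and replicate 1 was higher in S. The log2 fold change was 2.02 ± 0.43 (n = 9, edgeR adjusted p = 0.00704), with O higher in 8 of 9 animals, and the call was lost in 10 of 18 alternatives (adjusted p 1.52e-05 to 0.0403). In muscle, EEF1A2 was at 2640 to 5700 CPM scaled over all 34 libraries, against 0.910 to 13.8 in O on the same scale. The summed level of 161 muscle genes, with a mean of 100 CPM or more in muscle and 100 times the mean of O and S or more, was 614.7 to 953.9 CPM in O and 493.7 to 809.5 in S, higher in O in 9 of 9 animals. Of the 51 tested, 6 were called higher in O and 2 in S, against 4.57% and 3.66% of all tested genes. The part of muscle RNA in the EEF1A2 result was not tested. TPM2, a muscle tropomyosin, was at 122.5 to 295.9 CPM in O and 86.4 to 311.7 in S and was not called (log2 fold change 0.19 ± 0.17, edgeR adjusted p = 0.463).

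Of 26 macrophage and monocyte markers, 3 could be matched, and 1 was called, higher in O (4.57% of all tested genes were called in this direction). ITGAM, the integrin alpha M of macrophages, monocytes and neutrophils, ranged from 52.0 to 267.2 CPM in O (median 153.6) and from 26.3 to 84.2 in S (median 67.6). The depots overlapped, and replicate 7 was higher in S. The log2 fold change was 1.11 ± 0.21 (n = 9, edgeR adjusted p = 0.00378), with O higher in 8 of 9 animals, and the call was lost without the animal in the model (adjusted p = 0.0137) and without replicate 2, 5, 6 or 9 (range over the alternatives 1.43e-06 to 0.0137). CD163, a scavenger receptor of tissue macrophages (log2 fold change 0.23 ± 0.17, adjusted p = 0.372), and CCR2, a chemokine receptor of monocytes (0.36 ± 0.24, adjusted p = 0.324), were not called by edgeR. The median of the 3 log2 fold changes was 0.36. CCL2, the ligand of CCR2, was not called either (-0.33 ± 0.35, adjusted p = 0.542).

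MMP9, a gelatinase stored in neutrophils, was just past the threshold and is therefore not a DEG (edgeR adjusted p = 0.01004). It ranged from 10.4 to 222.0 CPM in O (median 44.5) and from 0 to 26.0 in S (median 2.96). Animals differed widely, with 7 of 9 higher in O and replicates 7 and 8 slightly higher in S. The log2 fold change was 3.04 ± 0.70, and the SD of the within-animal log2 difference was 2.40, against a median of 0.42 among DEGs. Without replicate 7 it was 3.55 (adjusted p = 0.00237), without replicate 8 it was 3.57 (0.00414), and the adjusted p ran from 1.24e-05 to 0.0274 over the alternatives.

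Among other genes up-regulated in S, CYP17A1, the enzyme with hydroxylase and lyase activity that leads from progestins to androgens, ranged from 4.65 to 37.9 CPM in S (median 10.2) and from 0.175 to 2.13 in O (median 0.619). The depots did not overlap. On the log2 scale the difference was -4.12 ± 0.23 (n = 9), a 17.3-fold difference, and S was higher in 9 of 9 animals. CYP17A1 passed the count filter through S, with 1 to 10 counts in O, so no p is given. In I it was at 3 to 13 counts and in muscle at 0 to 4, so its counts were highest in S (26 to 211) of the 4 tissues.

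FGF7, the keratinocyte growth factor that stromal cells secrete, ranged from 16.2 to 225.3 CPM in S (median 64.4) and from 6.63 to 19.6 in O (median 14.2). S spanned a wider range than O, with replicate 3 the highest and replicate 2 within the range of O. Between the depots the log2 fold change was -2.25 ± 0.35 (n = 9, edgeR adjusted p = 9.77e-04), with S higher in 9 of 9 animals. In I, FGF7 was at 52.4 to 114 CPM scaled over all 34 libraries, and S was at 13.3 to 185 on that scale.

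SLPI, a secreted protease inhibitor of epithelia and the single mesothelial marker of 32 with an identifier, had 5 counts in all of O (0 to 2 in a library) and 51 in S (0 to 19). It was higher in S in 8 of 9 animals, with replicate 4 at 0 in both depots. The log2 fold change was -3.05 ± 0.66 (edgeR adjusted p = 0.00598). The call was lost in 7 of 17 alternatives, among them without replicate 1, 2, 5 or 6 (adjusted p 0.00455 to 0.0301 over all). MFSD2A, a transporter of lysophospholipids, had 0 to 5 counts in O and 2 to 32 in S and was just past the threshold (log2 fold change -2.12 ± 0.51, edgeR adjusted p = 0.0106, range 0.00224 to 0.0386 over the alternatives).

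Of 41 lipid synthesis genes, 2 could be matched, FASN and DGAT2, and neither was called. FASN, the fatty acid synthase, had medians of 2894 CPM in O and 5123 CPM in S with overlapping ranges, and S was higher in 6 of 9 animals (log2 fold change -0.67 ± 0.27, 95% interval -1.25 to -0.09, edgeR adjusted p = 0.102). DGAT2, the last enzyme of triglyceride synthesis, was higher in S in 8 of 9 animals by a small amount (-0.34 ± 0.14, 95% interval -0.65 to -0.02, adjusted p = 0.129). PPP1R3C, a glycogen-targeting subunit of protein phosphatase, was at -0.27 ± 0.09 (edgeR adjusted p = 0.0494). The reference genes ACTB (0.10 ± 0.12, adjusted p = 0.598) and GAPDH (-0.27 ± 0.09, adjusted p = 0.0541, higher in S in 8 of 9 animals) were not called. TNMD and DUSP27 had at most 10 and 2 counts in any library, too few to compare.

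Over all 31 genes that could be named, 10 were called higher in O and 8 higher in S, and 13 were not called. Their median log2 fold change was -0.14. In the fit without the count filter, 4.15% of all genes were called higher in O and 2.56% higher in S, but the study picked these genes on these samples, so the larger share is no result about them.

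**Figure D3:**
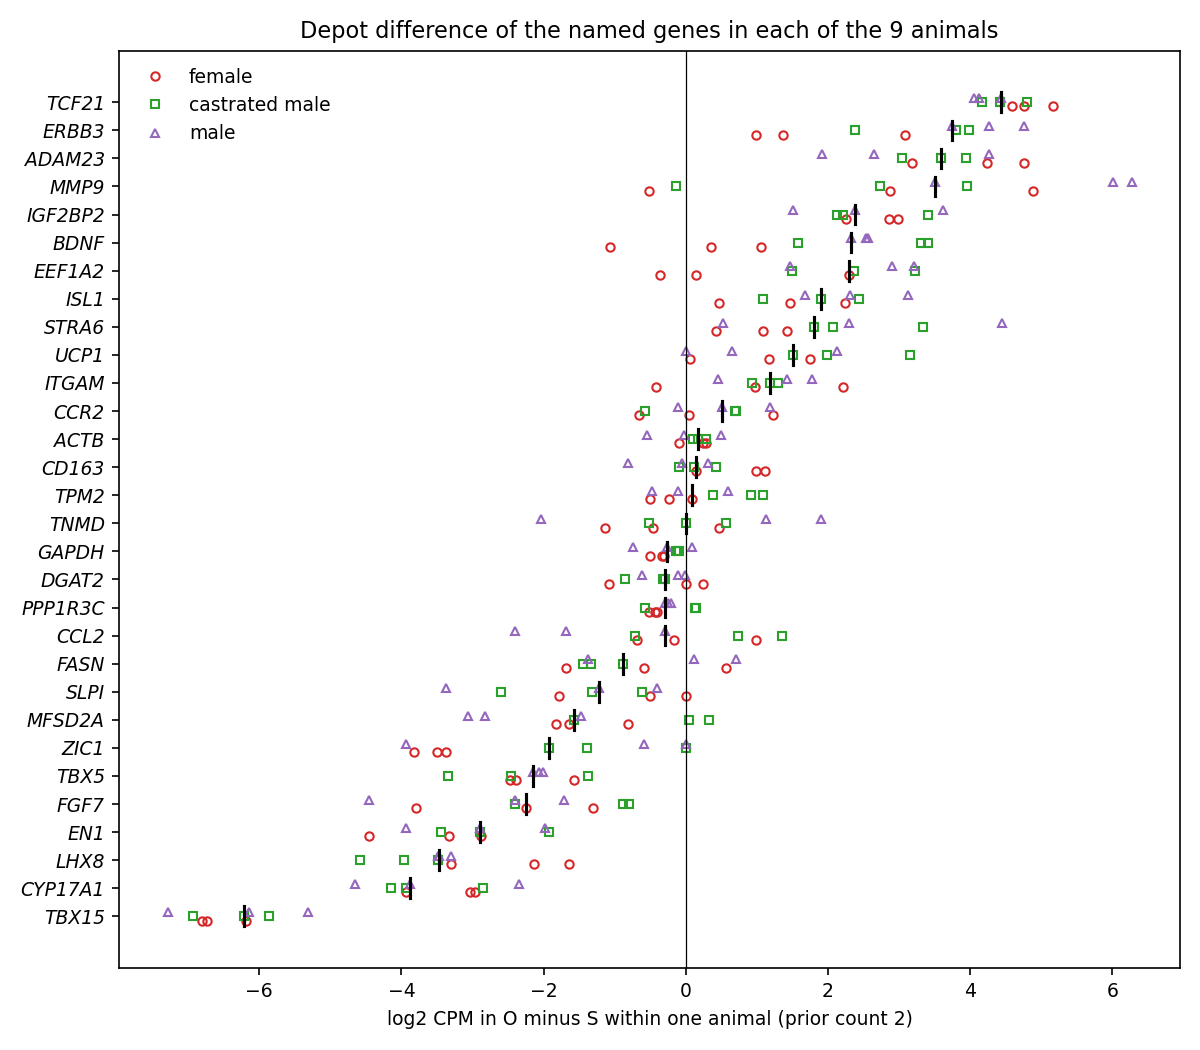
Within-animal difference in log2 CPM (prior count 2) between O and S for 30 named genes, ordered by median (black bar), with 1 point per animal and sexes by symbol and colour. TBX15 lies between -7.29 and -5.31 and TCF21 between 4.05 and 5.17, while MMP9 spreads from -0.52 to 6.27. The prior count pulls the values of genes with few counts towards 0, and for TCF21, TBX15, LHX8 and others at or near 0 in one depot it sets that depot's level.

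A gene was called on in O and off in S where it had at least 1 CPM in every O library and at most 3 counts in every S library. By this description, without a test, 15 of 24596 genes were on in O and off in S (0.061%), and 2 were on in S and off in O (0.00813%). Of these 17 genes only TCF21 and TBX15 could be named. A total of 12 passed the count filter, which a gene of this kind passes through one depot alone, so that its call follows from the definition. The other 5 had too few counts in at least 1 O library to pass it. In all, 12605 genes reached 1 CPM in every O library, 12393 in every S library and 12150 in all 18, and 5286 had 0 counts in all 18. Genes on in one depot and off in the other were thus few.

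The most abundant of these 15 with 0 counts in all of S was ENSBTAG00000000066, which had 24, 225 and 732 counts in O (61.0 ± 42.5 CPM, SD, n = 9). It was at least 111-fold higher in O, against 3 counts in a library of average size. ENSBTAG00000037693 had 15, 93 and 558 counts in O and also 0 in every S library, and was at least 58.5-fold higher in O. Both genes were absent or nearly so from the other tissues too, with at most 2 counts in an I library and 0 in muscle. These genes were chosen for the largest fold and are given by identifier, since no name could be matched, and no p is given for on/off genes, TBX15 and TCF21 included.

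On the S side, ENSBTAG00000003278 had 13, 52 and 95 counts in S and 0 to 3 in O (log2 fold change -6.27 ± 0.49). It had 29 to 67 counts in I and 75 to 348 in muscle, so that both genes off in O were present in the 3 other tissues. ENSBTAG00000007307 had 36 to 356 counts in S (median 244) and 0 to 16 in O (median 2). Its highest O library was thus well above the limit for off (log2 fold change -5.34 ± 0.47).

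Animals were alike in the direction of most DEGs. All 9 animals had the same direction for 786 of 1067 DEGs (73.7%; 427 higher in O and 359 higher in S), against 1176 of all 12966 tested genes (9.07%; 4.48% higher in O and 4.59% higher in S). A further 271 DEGs had 8 animals on one side and 10 had 7, and none had fewer. Agreement was similar for DEGs of at least 2-fold (294 of 388, 75.8%) and below (492 of 679, 72.5%). These counts use the animals that made the calls, and are a description. Depots did not overlap for 135 of the tested genes (1.04%), with O above S for 88 (0.679%) and S above O for 47 (0.362%), and all but 2 of these were DEGs.

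Each animal was then left out of the fit, and the direction of the genes called in the other 8 was read in it. The animal left out took no part in the call. Of all such genes, 89.3% had the same direction in the animal left out. The share was 97.5% in replicate 5 and 97.4% in replicate 6, 93.5% to 96.1% in replicates 1, 2 and 9, 85.1% to 88.6% in replicates 3, 4 and 8, and 76.1% in replicate 7. Over all tested genes, called or not, the share was 60.2% to 71.2%, so each animal was above its background. Genes are not independent of each other, so no error is given for these shares.

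**Figure D4:**
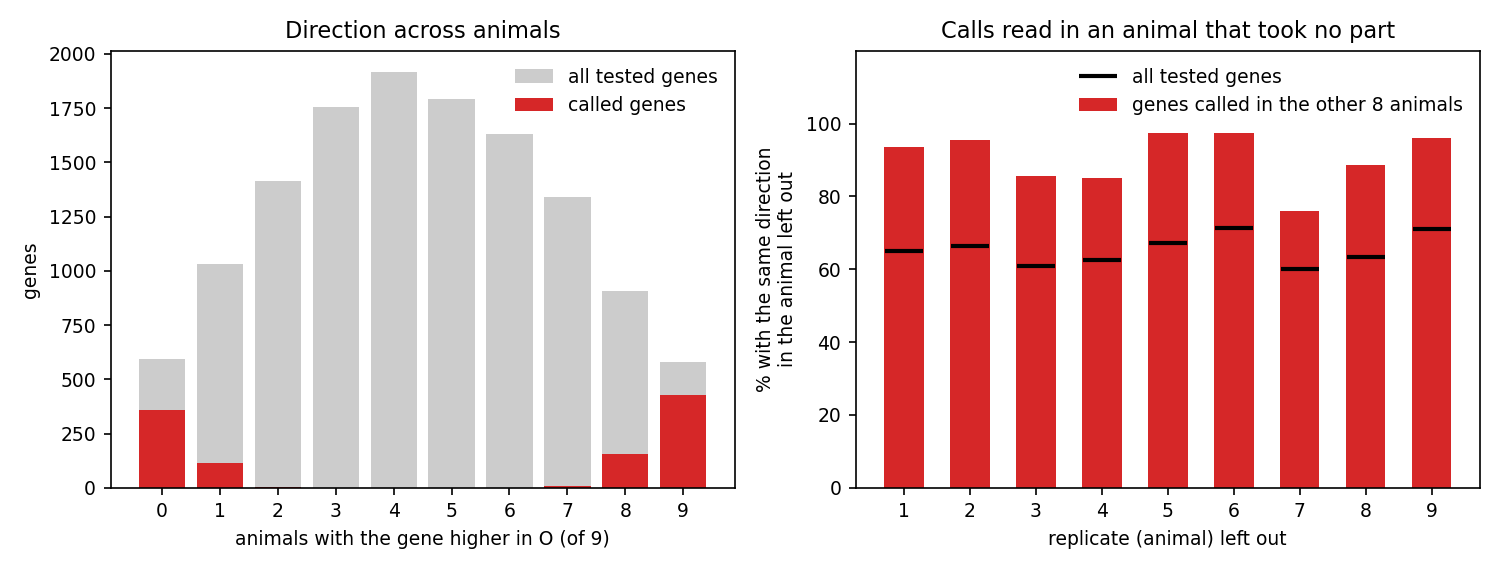
Left, the number of tested genes (grey) and DEGs (red, drawn in front) by the number of animals, 0 to 9, with a higher level in O. Right, the percent of genes called in the other 8 animals with the same direction in the animal left out (bars) beside that of all tested genes (black marks); the lowest bar is replicate 7 with 76.1%.

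Replicate 7, a female, stood apart on the omental side. Of the 291 cases of an animal against the direction of a DEG, 80 were in replicate 7, and 6 each in replicates 5 and 6. When replicate 7 was left out, the genes called higher in O had the same direction in it for 71.3%, and those called higher in S for 83.3%. Of the 75 DEGs at least 4-fold higher in O, replicate 7 had the lowest O library for 44 (58.7%), against 18.2% of all tested genes. That library had 5894666 counts on genes, above the median of O, but of the 9 O libraries it had the fewest genes detected (15918), the highest share of counts in the top 20 genes (10.7%) and the lowest TMM factor (0.949). On the first principal component, with 26.8% of the variance and O above S in 9 of 9 animals, it had the lowest value of the O libraries (-28.4), and the S library of this animal was also low, at -52.2 in a range of -61.9 to 12. Their part in these results was not tested. All 27 DEGs at least 4-fold higher in S were on the S side in this animal.

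The 15 genes on in O and off in S summed to 68.6 CPM in the O library of replicate 7, against 185.8 to 676.5 CPM in the other 8. ENSBTAG00000000066 was at 4.30 CPM in replicate 7 and at least 24.1 in the others. Replicate 7 had the lowest level for 11 of these 15 genes. The other 4 did not follow them. TCF21 had 8.42 CPM in replicate 7, the fifth lowest of the 9, another gene without a name had 1.97 CPM at the same rank, and the last 2 were highest in replicate 7, at 6.63 and 14.7 CPM. Of the named genes higher in O, ERBB3 (0.99) and ISL1 (0.47) had their smallest log2 difference between the depots in replicate 7. BDNF (-1.07) and ITGAM (-0.42), and also MMP9 (-0.52), which was not called, were higher in S in this animal, whereas ADAM23 had 4.24 there, above its median of 3.59. Of the genes higher in S, LHX8 also had its smallest difference in replicate 7 (-1.65). No mesothelial or blood cell marker among the on/off genes could be named, and the part of cell composition in these values was not tested. Without replicate 7, 1090 genes were DEGs (659 in O and 431 in S, 882 of them shared with the fit of all animals), and 23 genes were on in O and off in S.

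**Figure D5:**
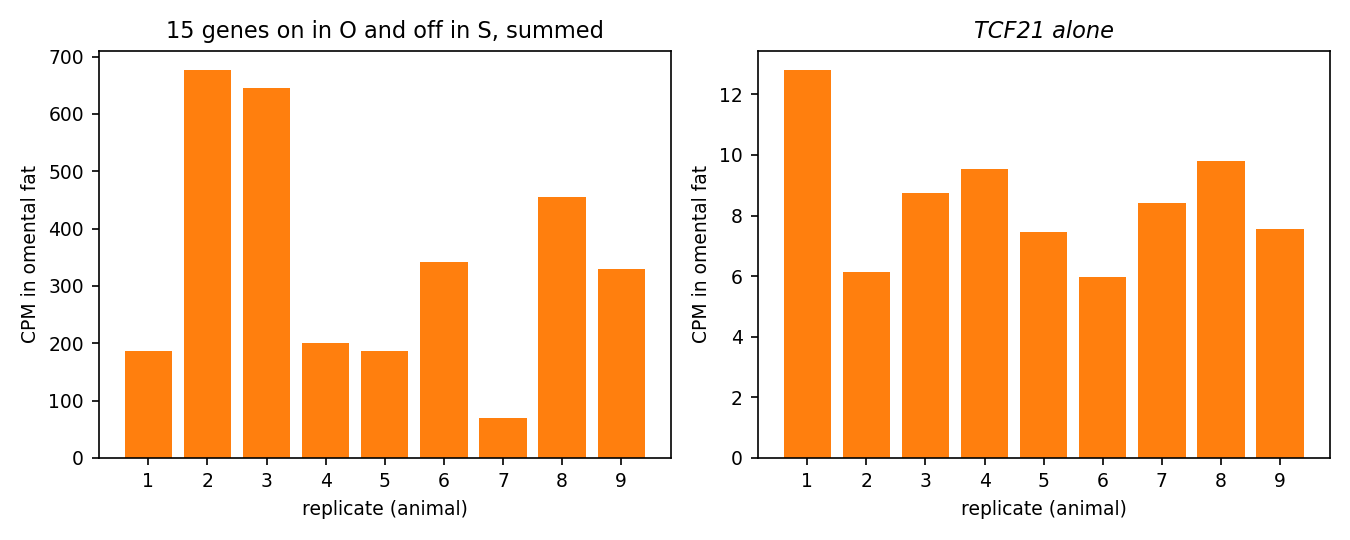
Level in the 9 omental libraries of the 15 genes on in O and off in S, summed (left), and of TCF21, which is one of them (right), as CPM with bars from 0. Replicate 7 has the lowest sum, 68.6 CPM, but 8.42 CPM of TCF21, within the range of the other animals.

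The labels allow a comparison of the depot difference between sexes, with 3 animals each. No gene was called for the interaction of sex with depot by the edgeR quasi-likelihood test at an FDR of 0.01 or 0.05, with a lowest adjusted p of 0.157 and 981 of 12966 genes at an unadjusted p under 0.05. Of the pairs of sexes, males against castrated males had the lowest adjusted p, 0.0639, with 1119 genes at an unadjusted p under 0.05. The likelihood ratio test of DESeq2 called 13 of 10955 tested genes at 0.01 and 34 at 0.05. Its lowest adjusted p was 2.54e-08, and 646 genes had an unadjusted p under 0.05. How large a difference between sexes 3 animals per sex can show was not tested, and a depot difference of the same size in each sex is not shown.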

How the data were processed

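RNA-seq of poly(A) RNA was read in 9 O and 9 S libraries, with 8 I and 8 muscle libraries for levels. The authors mapped 90-base paired-end reads to bosTau6 with TopHat2 (2.0.2) and made counts for each Ensembl gene with HTSeq (0.5.3p3). The strand setting is not given in the sources used here, so overlapping genes on opposite strands may share reads. The deposited values are raw counts for 24596 genes. A further 5 lines name no gene and were left out. Reads on no feature were 57.9% to 62.8% of all lines and reads not unique 6.65% to 10.8%. The labels and the study's methods name different RNA extraction kits.

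Counts were analysed in R 4.3.3 with edgeR 4.0.16 (filterByExpr with a count minimum of 10, TMM, quasi-likelihood test with the animal as a block, FDR under 0.01), limma 3.58.1 and DESeq2 1.42.0, and plotted with Python 3.11.15 and matplotlib 3.10.9. The study's methods name the likelihood ratio test and do not mention a term for the animal. SE is the absolute log2 fold change over the square root of F. Genes below the filter were read from a fit without it. Pairing comes from the animal numbers of the labels. The deviations of both libraries of an animal from their depot means correlated with r = 0.271 to 0.735, against a median of -0.0388 between animals, over 12966 genes. In 8 of 9 animals the O library correlated best with the S library of its own animal, and in replicate 3 it did not. No 2 libraries of a depot were alike within sampling noise (lowest chi-square per gene 12 over 72 pairs).

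On data simulated from this comparison over 12966 genes, the test recovered 86 of 100 genes changed 2-fold and 99 of 100 changed 4-fold with 1 false call; without the animal it recovered 63 and 94 with 0, and DESeq2 89 and 99 with 14.

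Names were matched to identifiers for 31 genes, all from the primer table of the study, since the reference table used here holds no Ensembl identifiers. Other members of the gene and marker lists, and sequences, are not analysed here. Named genes were those 31, plus the genes with the largest folds of the same direction in all 9 animals and the on/off genes by identifier, of which a part is printed. The members, lists and rules were chosen with earlier results of these data known. Alternatives were no animal term, the likelihood ratio test, DESeq2, RLE factors or no scaling, other count filters, an FDR of 0.05, a 2-fold minimum, all fat libraries in one fit, the sexes averaged, other limits for on and off, and each animal left out.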

Additional observations from a re-analysis of the deposited data

Results flagged for a closer look

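Sets of 9 values were checked for one that stands apart by Dixon's test at 95%. They were levels of named genes in each depot, log2 differences within animals, and library and summary measures. Of 110 sets, 14 had such a value, all of them CPM of a named gene in one depot. Chance gives about 1 in 20 for normal values, which skewed CPM are not, so no excess over chance is read from this. In O, replicate 3 was highest for ERBB3 (104.0 CPM, next 51.2), ISL1 (7.69, next 2.46) and STRA6 (15.7, next 3.34). Replicate 2 was highest in O for CCL2 (149.0 CPM, next 75.0) and UCP1 (6.33, next 2.66), and replicate 9 for EEF1A2 (16.7 CPM, next 6.68). In S, replicate 3 was highest for FGF7 (225.0 CPM, next 97.1), MFSD2A (5.92, next 2.69) and TNMD (1.85, next 0.899), and replicate 1 for EEF1A2 (7.01, next 2.15) and ERBB3 (9.17, next 4.11).

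The other 3 rest on 1 or 2 counts in a single library where all others had 0: DUSP27 in O (0.206 CPM, replicate 6), TBX5 in O (0.358, replicate 7) and TCF21 in S (0.185, replicate 3). On the log2 difference between depots within an animal, no named gene had an animal that stood apart by the same test. Replicate 3 was behind 7 of the 14 values, and its depot pair correlated least of all animals (r = 0.271).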

How the results depend on the processing

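The count of DEGs was 1067 with the animal as a block and 430 with no replicate block (259 in O, 171 in S). It was 2320 at an FDR under 0.05 (1192 in O, 1128 in S) and 388 with a 2-fold minimum (263 and 125). Genes higher in S were 304 in the likelihood ratio test without the animal and 274 in one fit over all fat libraries. Leaving out each animal gave 625 to 1090 DEGs, 361 to 659 in O and 264 to 435 in S; the total fell by more than 1.5 times without replicate 1 (709), 2 (704), 5 (668), 6 (625) or 9 (686), each of which also leaves fewer animals. With no scaling beyond the total, 63.9% of DEGs were higher in O (639 of 1000), against 55.5%, and the median log2 fold change of all genes moved to 0.03. DESeq2 called 1531 genes (875 in O, 656 in S). On the simulated data, drawn with dispersions estimated by edgeR, it made 14 false calls against 1. Whether its further calls on the real data are false was not tested. Genes on in O and off in S were 23 with on at 0.5 CPM, 3 with off at 0 counts, 9 with off under 0.2 CPM and 15 to 23 without one animal. Those on in S and off in O were 6, 0 and 0 under the same limits and 2 to 3 without one animal. The interaction of sex with depot gave 0 genes with edgeR and 13 with DESeq2. TNMD, with at most 10 counts, turned from -0.14 to 0.07 with DESeq2 and ranged from -0.68 to 0.57 without one animal (0.15 without replicate 1, 0.57 without replicate 3). Of 547 values of single genes under alternatives, 498 kept direction and side of the threshold, 32 lost the call, 14 gained it and 3 turned. The causes were not tested. The counts are too few for a precise fold in genes below the count filter at this depth (LHX8, TBX5, ZIC1, ISL1, STRA6, UCP1, BDNF, SLPI, MFSD2A, TNMD and DUSP27).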
